A study of Mus musculus with 4 samples.

Results

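The oocyte transcription factors described here are 7 genes, Nobox, Lhx8, Tbpl2, Figla, Taf4b, Sohlh2 and Sohlh1, taken by symbol from 53677 gene symbols counted in mouse oocytes. All 7 had reads in every library, and all 7 were among the 17879 genes that passed a filter on low counts. The set was put together with the lower Taf4b level in these data already known. Oocytes were at the germinal vesicle (GV) stage, arrested in meiotic prophase, and came from females killed 48 h after 7.5 IU of PMSG, a gonadotropin that stimulates the growth of follicles. There were 2 libraries of Ell3 knockdown oocytes (Ell3 KD) and 2 of control oocytes (Ctrl), each made from 5 pooled oocytes with Smart-seq2, a method that amplifies full-length cDNA from little polyadenylated RNA. Ell3 encodes an elongation factor of RNA polymerase II. The sources used here do not state how the knockdown was made, what the control oocytes received, or the strain and age of the mice. Whether replicates came from different animals is likewise unknown. Each p-value weighs the difference between the groups against the spread of libraries within a group, and that spread may be only technical.

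Oocytes build their identity with a small circuit of transcription factors that is switched on around follicle formation. In mice, FIGLA, SOHLH1 and SOHLH2 are basic helix-loop-helix proteins that bind short DNA elements called E-boxes, NOBOX is a homeodomain protein, and LHX8 is a LIM-homeodomain protein. Loss of any of these factors in mice blocks or impairs early follicle development. TAF4B and TBPL2 are germ-line versions of core transcription proteins. TAF4B is a paralog of TAF4, a subunit of the TFIID complex, and TBPL2 is a relative of the TATA-binding protein TBP that acts with TFIIA in growing mouse oocytes.

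Deposited counts summed to 89632815 and 65722415 in the Ell3 KD libraries and to 45131278 and 48669267 in the Ctrl libraries, so the groups did not overlap in depth. A gene with no reads lay below 0.0335 to 0.0665 CPM (counts per 1000000 counts of the library), taking 3 counts as the limit, which covers counting error only. Ell3, the targeted gene, had 255 and 181 counts in Ell3 KD and 371 and 483 in Ctrl, or 2.84 ± 0.0558 CPM against 8.95 ± 1.18 CPM (SD, n = 2 per group, as for every ± on CPM that follows). Serinc4 on the same strand shares 65.6% of the exonic bases of Ell3. The 11 oocyte markers examined were all present and summed to 22367 and 22279 CPM in Ell3 KD and to 22788 and 22398 CPM in Ctrl. The similar sums hide changes of single markers, with log2 fold changes from -0.23 to 0.49. Of the 11, 3 were called higher (Dppa3, Ooep and Oosp1), 3 lower (Gdf9, Zp1 and Nlrp5) and 5 were not called. Over all genes tested, 21.1% were called higher and 21.8% lower. The 14 granulosa cell markers summed to 28.3 and 30.2 CPM in Ell3 KD and to 30.6 and 28.2 CPM in Ctrl. Most of that sum was Cyp19a1, at 17.1 ± 1.19 CPM in Ell3 KD and 18.0 ± 1.10 CPM in Ctrl. Of 9 granulosa markers tested, Inha alone was called, higher at 2.33 ± 0.209 CPM in Ell3 KD and 1.04 ± 0.137 CPM in Ctrl (edgeR adjusted p = 3.63e-04). The defining markers went both ways at few reads, Foxl2 with 4 and 3 counts and Amh with 9 and 5 in Ell3 KD against 0 in each Ctrl library, and Fshr with 53 and 29 counts in Ell3 KD against 41 and 50 in Ctrl. The 13 theca, stromal and blood markers, most of whose counts were of Pecam1, summed to 52.9 and 55.9 CPM in Ell3 KD and to 70.1 and 68.1 CPM in Ctrl, with the 4 globin genes at 0 throughout. Of 5 tested, Dcn was called higher, at 1.88 ± 0.158 CPM in Ell3 KD and 0.859 ± 0.132 CPM in Ctrl (edgeR adjusted p = 0.00122). Called lower were Pecam1 (edgeR adjusted p = 3.01e-06) and Cd68, at 1.18 ± 0.0716 CPM in Ell3 KD and 2.64 ± 0.302 CPM in Ctrl (edgeR adjusted p = 2.18e-04). The part of these markers in the results below was not tested. In libraries of pooled oocytes, fewer cells that express a gene and less of its RNA per cell cannot be told apart.

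Upstream sequences are shown for Nobox, which fell, for Tbpl2, which rose, and for Sohlh1, the least abundant gene of the set. Each is the 250 bases before the RefSeq transcription start on GRCm38.p6, read 5′ to 3′ on the strand of the gene, with E-boxes (CANNTG, which reads the same on both strands) in capitals. The RefSeq promoter table held 6 of the 7 genes, without Taf4b. Nobox is read from the minus strand of chr6:43309555-43309804, Tbpl2 from the minus strand of chr2:24096596-24096845 and Sohlh1 from the minus strand of chr2:25847249-25847498.
Nobox: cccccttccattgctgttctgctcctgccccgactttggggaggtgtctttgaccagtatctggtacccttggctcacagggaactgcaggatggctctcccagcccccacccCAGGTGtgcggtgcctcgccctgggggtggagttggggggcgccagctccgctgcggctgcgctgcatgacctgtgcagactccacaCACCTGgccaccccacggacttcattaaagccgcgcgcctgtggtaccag
Tbpl2: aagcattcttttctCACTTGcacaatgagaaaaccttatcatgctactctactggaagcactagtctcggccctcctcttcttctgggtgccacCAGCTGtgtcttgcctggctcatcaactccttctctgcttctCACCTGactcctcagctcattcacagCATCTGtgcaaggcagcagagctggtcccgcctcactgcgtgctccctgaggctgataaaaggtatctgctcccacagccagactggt
Sohlh1: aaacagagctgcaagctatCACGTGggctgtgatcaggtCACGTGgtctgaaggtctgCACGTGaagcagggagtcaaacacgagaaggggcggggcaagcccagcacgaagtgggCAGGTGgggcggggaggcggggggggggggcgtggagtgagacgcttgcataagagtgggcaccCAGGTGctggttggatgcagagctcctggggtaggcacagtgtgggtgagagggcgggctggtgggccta
The Nobox window held 2 E-boxes, beginning at -137 and -50 from the start, reading CAGGTG and its reverse complement CACCTG. The Tbpl2 window held 4, of 4 different letter combinations. The Sohlh1 window held 5, of which 3 read CACGTG. Among 32851 windows of the same length in the table, 31.8% held at least 2 E-boxes, 3.84% at least 4 and 1.15% at least 5, while 0.0609% held at least 3 copies of CACGTG. Of the other genes, Figla had 2 E-boxes, Sohlh2 had 1 and Lhx8 had 0, but GENCODE places the starts of these 3 genes farther upstream than RefSeq, so their windows lie wholly or partly within the GENCODE gene. The TATA motif TATAAA, searched on both strands, had no exact match in any of the 6 windows, against 12.4% of all windows. Near matches, such as gataaaag in the Tbpl2 window, were not counted, and 6 windows are too few for a comparison with such shares. The homeodomain motifs TAATTG and TAATTA, searched likewise, also had none, against 7.17% and 4.84% of all windows. These matches describe the letters and not the binding of a factor.

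The 7 genes spanned a wide range of levels. To compare genes, CPM were divided by the exon length in kilobases (CPM per kb), with lengths from GENCODE M21. Nobox led with 1043 and 1033 CPM per kb in Ell3 KD and 1289 and 1217 in Ctrl, above 99.9% of 17308 tested genes with an annotated length. Lhx8 followed with 154.3 and 156.1 CPM per kb in Ell3 KD and 160.9 and 163.3 in Ctrl. Tbpl2 and Figla were close neighbours, at 49.5 and 49.98 CPM per kb in Ell3 KD and 43.7 and 41.4 in Ctrl for Tbpl2, and at 39.3 and 38.0 in Ell3 KD and 37.8 and 38.5 in Ctrl for Figla. Taf4b came next with 4.49 and 5.12 CPM per kb in Ell3 KD and 8.05 and 8.20 in Ctrl. The pair of SOHLH genes was lowest, Sohlh2 at 2.02 and 2.03 CPM per kb in Ell3 KD and 2.02 and 2.01 in Ctrl, and Sohlh1 at 0.666 and 0.468 in Ell3 KD and 0.730 and 0.534 in Ctrl. The order was the same in all 4 libraries, and no neighbours in it overlapped.

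**Figure D1:**
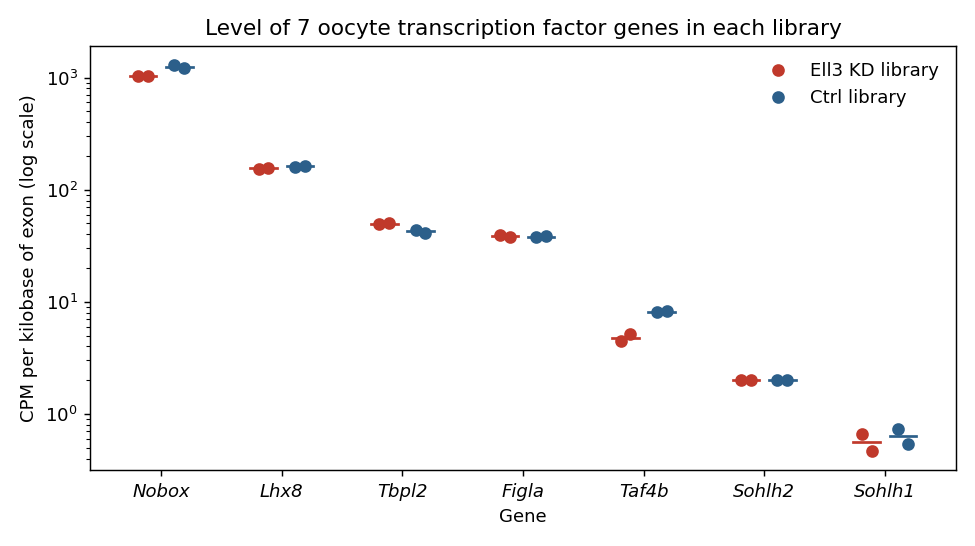
CPM per kilobase of exon (log axis) of each gene in each library, with Ell3 KD in red left of Ctrl in blue, a point per library and a bar at the mean of 2. Nobox lies near 1000 in all libraries and Sohlh1 below 1, and Taf4b has the widest gap between the groups.

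Knockdown of Ell3 went with a lower level of Taf4b and Nobox, a higher level of Tbpl2, and no call for Figla, Lhx8, Sohlh1 and Sohlh2. At an adjusted p under 0.05 (edgeR quasi-likelihood test, Benjamini-Hochberg over 17879 genes), 1 of the 7 genes was higher and 2 were lower. Over all genes tested, 42.9% were called, 21.1% higher and 21.8% lower, so a count of 3 called among 7 lies at the background and is no result about the set. The median log2 fold change was -0.06 over the 7 genes and -0.0024 over all genes. The groups did not overlap for 5 of the 7 genes, 2 above and 3 below Ctrl, as against 70.7% of all genes (35.0% above and 35.7% below). The 95% intervals of all 7 lay within a 2-fold change in either direction. All changes are relative, since libraries were scaled to each other, and total mRNA per oocyte was not measured. The fit gave a narrow spread between libraries, a common biological coefficient of variation of 0.0421. Where 0.2 was assumed in its place, none of the 7 was called (edgeR likelihood ratio test, lowest adjusted p = 0.0768, for Taf4b).

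**Figure D2:**
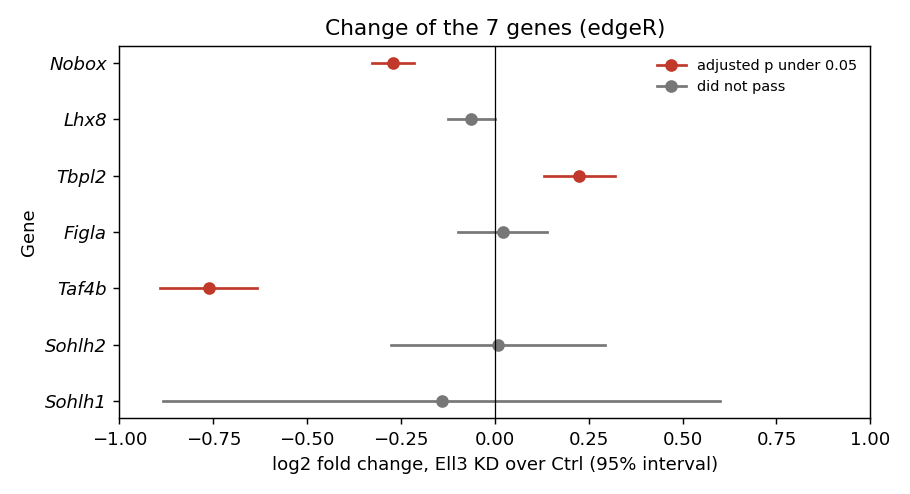
The log2 fold change of each gene, Ell3 KD over Ctrl, with its 95% interval from edgeR (2 libraries per group), in red where the adjusted p is under 0.05. Taf4b and Nobox lie below 0 and Tbpl2 above, and the widest interval is that of Sohlh1, from -0.88 to 0.60.

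Taf4b had 2050 and 1703 counts in Ell3 KD and 1895 and 2085 in Ctrl, which in libraries of unequal depth is 23.1 and 26.3 CPM against 41.5 and 42.2 CPM. Both Ell3 KD libraries lay below both Ctrl libraries. The mean was 24.7 ± 2.26 CPM in Ell3 KD and 41.9 ± 0.547 CPM in Ctrl, 1.69-fold lower in Ell3 KD. On the log2 scale the difference was -0.76 ± 0.06 (SE), at an edgeR adjusted p = 4.86e-10. Among 9704 genes with a mean of at least 5 CPM, 98.6% had a smaller absolute log2 fold change, against a median of 0.16. Taf4b was put in the set with its fall already known. The adjusted p-values, this rank and the other fits of Taf4b therefore describe the fall and are no independent test of it. The change was -0.67 without Ell3 KD replicate 1 and -0.85 without Ell3 KD replicate 2, the ends of its range when libraries were left out. With the libraries thinned to the depth of the smallest it was -0.74 (edgeR adjusted p = 3.41e-06). Taf4b is on the plus strand of chromosome 18 (GRCm38, 14783245 to 14900359), and no other annotated exon overlaps its exons.

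Taf4, the paralog of Taf4b that is active in most cell types, went the other way. It stood at 26.0 ± 0.229 CPM in Ell3 KD and 22.8 ± 0.291 CPM in Ctrl, higher by 0.19 ± 0.06 on the log2 scale (adjusted p = 0.0188 in edgeR), although this call was lost with DESeq2 (adjusted p = 0.0905) and without Ell3 KD replicate 1 (edgeR adjusted p = 0.108), Ell3 KD replicate 2 (edgeR adjusted p = 0.0643) or Ctrl replicate 2 (edgeR adjusted p = 0.0826). Per kb of exon, the ratio of Taf4b to Taf4 was 0.793 and 0.914 in the Ell3 KD libraries and 1.62 and 1.68 in the Ctrl libraries. These ratios use merged exon lengths of 5149 bases for Taf4b and 4621 for Taf4. In CPM without that division, Taf4b and Taf4 stood at 23.1 and 26.2 in Ell3 KD replicate 1 and at 26.3 and 25.9 in Ell3 KD replicate 2, so which of the pair was higher in replicate 2 depends on the length. The log2 ratio differed by -0.95, with an exact permutation p = 0.333 (two-sided), which is the smallest that 2 libraries against 2 can give. Other pairs were tested likewise. The same p was reached for Taf4b to Figla (-0.78), Nobox to Lhx8 (-0.21) and Tbpl2 to Tbp (0.18). Sohlh1 to Sohlh2 (-0.17) had an exact permutation p = 0.667.

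Nobox, whose protein activates oocyte genes in mice, had 2099 and 2078 CPM in Ell3 KD and 2594 and 2448 CPM in Ctrl. The groups did not overlap, and the mean of Ell3 KD lay 1.21-fold below that of Ctrl. The means were 2089 ± 15.3 CPM in Ell3 KD and 2521 ± 103.6 CPM in Ctrl, a difference of -0.27 ± 0.03 on the log2 scale (adjusted p = 1.74e-08 in edgeR). Of the genes at 5 CPM or more, 73.7% had a smaller absolute change. Without Ctrl replicate 1 the change was -0.23 and without Ctrl replicate 2 it was -0.32, the ends of its range when libraries were left out. Nobox is on the minus strand of chromosome 6 (43303674 to 43309554).

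Tbpl2 had 68.2 and 68.9 CPM in Ell3 KD and 60.3 and 57.1 CPM in Ctrl. Both Ell3 KD libraries lay above both Ctrl libraries. The means were 68.6 ± 0.508 CPM in Ell3 KD and 58.7 ± 2.23 CPM in Ctrl, a difference of 0.22 ± 0.05 on the log2 scale (adjusted p = 3.22e-04 in edgeR), and 65.4% of the genes at 5 CPM or more had a smaller absolute change. Tbp, the general TATA-binding protein gene, stood at 164.7 ± 2.84 CPM in Ell3 KD and 160.2 ± 1.82 CPM in Ctrl and did not pass the test (log2 fold change 0.04 ± 0.04, edgeR adjusted p = 0.391). The levels of Tbpl2 and Tbp were not ranked, because the merged exon length of Tbp, 13576 bases against 1379 for Tbpl2, would decide the order. Pdcd2 on the opposite strand covers 19.0% of the exonic bases of Tbp, and the strand setting of the counting was not given. Tbpl2 is on the minus strand of chromosome 2 (24071721 to 24096595).

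Figla, Lhx8 and both SOHLH genes did not pass the test. Lhx8 had 390.6 and 395.2 CPM in Ell3 KD and 407.4 and 413.5 CPM in Ctrl, so the groups did not overlap, but the log2 fold change was -0.06 ± 0.03 (edgeR adjusted p = 0.0978). Its interval allows a level in Ell3 KD between 0.916 and 0.9998 times that in Ctrl. Figla, whose protein switches on the zona pellucida genes in mice, had 32.9 and 31.7 CPM in Ell3 KD and 31.6 and 32.2 CPM in Ctrl, with overlapping groups. Its log2 fold change was 0.02 ± 0.06 (edgeR adjusted p = 0.812), and the interval runs from 0.933 to 1.10 times the Ctrl level. Lhx8 is on the minus strand of chromosome 3 (154306294 to 154330659) and Figla on the plus strand of chromosome 6 (86016171 to 86020996).

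The SOHLH genes, which act at the earliest follicle stages in mice, were measured with the fewest reads. Sohlh2 had 423 and 310 counts in Ell3 KD and 218 and 234 in Ctrl, or 4.77 and 4.79 CPM against 4.77 and 4.74 CPM. The Ell3 KD libraries were nominally above Ctrl, by a mean of 0.610%, and the log2 fold change was 0.0087 ± 0.14 (edgeR adjusted p = 0.968). Sohlh1 had 76 and 39 counts in Ell3 KD and 43 and 34 in Ctrl, or 0.858 and 0.603 CPM against 0.941 and 0.689 CPM, with overlapping groups. The log2 fold change, -0.14 ± 0.36 with an edgeR adjusted p = 0.786, had an interval from 0.542 to 1.52 times the Ctrl level, so a smaller difference was not detectable at this depth. Its sign was positive without Ell3 KD replicate 2 (0.08), without Ctrl replicate 1 (0.10) and in thinned libraries (0.06). Sohlh2 is on the plus strand of chromosome 3 (55182028 to 55209957) and Sohlh1 on the minus strand of chromosome 2 (25842995 to 25847248). As with Taf4b, no other annotated exon overlaps the exons of the other 6 genes.

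**Figure D3:**
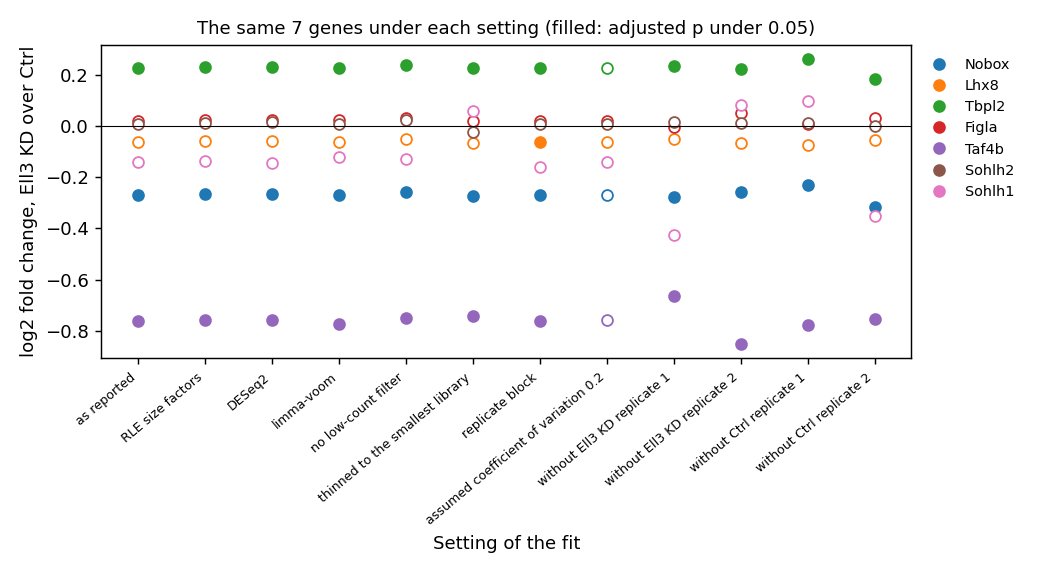
The log2 fold change of each gene, Ell3 KD over Ctrl, as reported and under 11 other settings of the fit, with filled points where the adjusted p is under 0.05. Taf4b and Nobox stay below 0 and Tbpl2 above 0 throughout, and Sohlh1 lies on both sides of 0.

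Genes listed for TFIID and TFIIA were mostly higher. The list, called here TFIID and TFIIA genes, also held Tbpl1, a relative of Tbp. Like those of targets and partners below, it was made with earlier results of these data known, so the counts are descriptive only. Of the 21 listed genes, 20 were tested, 13 rose, 1 fell and 6 did not pass, where 21.1% of all genes rose and 21.8% fell. The median log2 fold change was 0.19, against -0.0024 over all genes. Among them Taf3, the TFIID subunit that reads methylated histone H3, had the highest CPM, a value that also grows with transcript length, and rose to 364.5 ± 2.22 CPM in Ell3 KD oocytes, against 317.2 ± 1.98 CPM in Ctrl (log2 fold change 0.20 ± 0.03, edgeR adjusted p = 1.05e-05). Taf9b, a TFIID subunit gene and the second in CPM, rose by 0.15 ± 0.03 (log2; edgeR adjusted p = 3.30e-04), and Taf7, the third, had 0.07 ± 0.03 and did not pass (edgeR adjusted p = 0.0813). Tbpl1, the other relative of Tbp, known for its role in mouse spermatids, rose to 14.7 ± 0.821 CPM in Ell3 KD oocytes, against 10.05 ± 0.0032 CPM in Ctrl (log2 fold change 0.55 ± 0.09, edgeR adjusted p = 2.05e-05). Slc2a12 on the opposite strand covers 12.4% of the exonic bases of Tbpl1. Taf13 rose by 0.34 ± 0.06 and Taf10 by 0.30 ± 0.05 on the log2 scale, though 45.9% of the exon length of Taf10 overlaps Ilk on the opposite strand. The highest fold in the list, that of Taf9 (0.74 ± 0.17), is uncertain because Ak6 on the same strand shares 73.8% of its exonic bases.
All 3 TFIIA genes rose. Gtf2a2, the small subunit gene, rose by 0.27 ± 0.05 (log2; edgeR adjusted p = 2.73e-05). Gtf2a1, for the large subunit, changed by 0.18 ± 0.04 (edgeR adjusted p = 8.39e-04), and Gtf2a1l, its germ-cell version, by 0.11 ± 0.03 (edgeR adjusted p = 0.00609), both singled out after their values were seen because TBPL2 acts with TFIIA. The call for Gtf2a1l was lost without Ell3 KD replicate 2 (edgeR adjusted p = 0.0509). The gene that fell was Taf11 (-0.26 ± 0.06, edgeR adjusted p = 4.29e-04), also singled out after its value was seen. Exons of other genes on the opposite strand, Anks1 among them, cover 16.2% of its exonic bases. None of these 20 genes was called where a coefficient of variation of 0.2 was assumed.

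**Figure D4:**
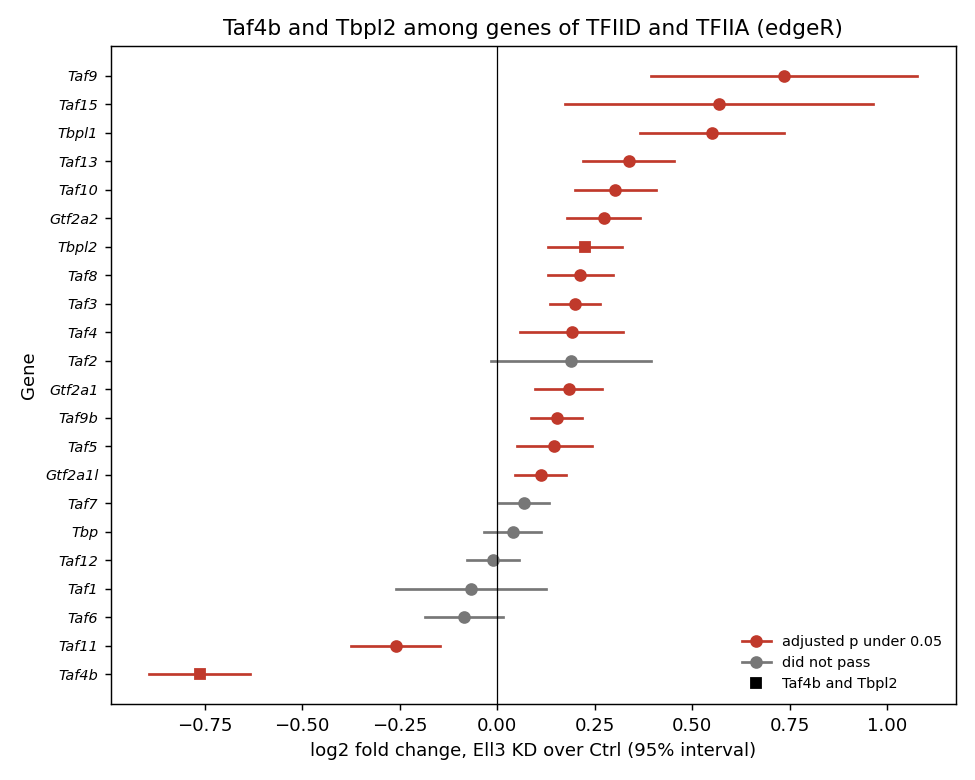
The log2 fold change, Ell3 KD over Ctrl, with 95% intervals from edgeR (2 libraries per group) of the 20 tested genes of the TFIID and TFIIA list, Tbpl1 included (circles), and of Taf4b and Tbpl2 (squares), in red where the adjusted p is under 0.05. Taf4b is the lowest of the 22 genes and Tbpl2 lies among those that rose.

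Genes listed here as targets of these factors in mice moved both ways. Of the 20 listed, 7 rose, 4 fell and 9 did not pass, beside 21.1% rising and 21.8% falling among all genes, with a median log2 fold change of 0.0037. Oosp1, an oocyte-secreted protein gene, rose to 306.4 ± 8.71 CPM in Ell3 KD oocytes, against 223.3 ± 6.08 CPM in Ctrl (log2 fold change 0.46 ± 0.03, edgeR adjusted p = 8.52e-11). H1foo, the oocyte linker histone gene, rose by 0.20 ± 0.02, Rfpl4 by 0.21 ± 0.03 and the growth factor gene Fgf8 by 0.21 ± 0.03 on the log2 scale. Gdf9, a growth factor gene, fell to 2049 ± 26.7 CPM in Ell3 KD oocytes, against 2360 ± 148.5 CPM in Ctrl (log2 fold change -0.20 ± 0.03, edgeR adjusted p = 7.87e-06). The listed genes were not sorted by the factor that acts on them, and whether they followed that factor was not tested. Zp3, a zona pellucida gene, stood at 7403 ± 53.6 CPM in Ell3 KD and 7425 ± 20.4 CPM in Ctrl and was not called (edgeR adjusted p = 0.900). Of the other zona pellucida genes listed, Zp1 was called lower (log2 fold change -0.12 ± 0.03, edgeR adjusted p = 6.21e-04). Zp2 was not called (-0.05 ± 0.03, edgeR adjusted p = 0.165). Padi6, a maternal-effect gene, stood at 4367 ± 25.3 CPM in Ell3 KD and 4448 ± 78.0 CPM in Ctrl and was not called (edgeR adjusted p = 0.393). Without Ell3 KD replicate 1, 2 genes rather than 4 were called lower, with the DNA methyltransferase gene Dnmt1 (edgeR adjusted p = 0.120) and the receptor gene Gpr149 (edgeR adjusted p = 0.0735) lost. Dnmt1 was also lost without Ell3 KD replicate 2 (edgeR adjusted p = 0.0976) or Ctrl replicate 2 (edgeR adjusted p = 0.0668).

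Partners and companions of the factors were also split. The 17 genes comprised the E proteins that pair with helix-loop-helix factors, the ID proteins that block them, and Foxo3. They also comprised the LDB cofactors of LIM-homeodomain factors such as LHX8, and the LIM-only (LMO) proteins. Stat3, Dynll1 and Sub1 completed the list. These 3 belong with FIGLA, NOBOX, SOHLH1, LHX8 and TBPL2 to a set that turns mouse stem cells into oocyte-like cells. Of the 17 genes, 16 were tested, 7 rose, 5 fell and 4 did not pass, again beside 21.1% and 21.8% of all genes, with a median log2 fold change of 0.06. Sub1, a transcription coactivator gene, rose to 889.8 ± 19.9 CPM in Ell3 KD oocytes, against 679.7 ± 31.6 CPM in Ctrl (log2 fold change 0.39 ± 0.03, edgeR adjusted p = 3.85e-10). Dynll1, a dynein light chain gene, rose by 0.41 ± 0.04 (log2; edgeR adjusted p = 5.70e-09). Stat3, a signal-dependent transcription factor gene, fell to 138.0 ± 0.780 CPM in Ell3 KD oocytes, against 185.3 ± 0.376 CPM in Ctrl (log2 fold change -0.42 ± 0.04, edgeR adjusted p = 5.35e-10).
Of the LIM-only genes, Lmo4 rose by 0.72 ± 0.09, Lmo3 by 0.49 ± 0.07 and Lmo1 by 0.14 ± 0.03 on the log2 scale, and Lmo2 had no reads. Of the LDB cofactor genes, Ldb1 rose by 0.24 ± 0.06 (log2; edgeR adjusted p = 0.0020), and Ldb2 was called lower. Foxo3, a factor that holds primordial follicles dormant in mice, rose by 0.18 ± 0.03 (edgeR adjusted p = 9.34e-05). The count of 5 lower genes was the least stable. The E protein genes Tcf3 (-0.17 ± 0.05, edgeR adjusted p = 0.0131) and Tcf12 (-0.20 ± 0.07, edgeR adjusted p = 0.0304), singled out after their values were seen, lost their calls without Ell3 KD replicate 1, leaving 3 lower genes. Without Ell3 KD replicate 2 they were lost together with the LIM cofactor gene Ldb2, leaving 2, and DESeq2 also called 2. Calls were also lost for Tcf3 (edgeR adjusted p = 0.0753) and Ldb2 (edgeR adjusted p = 0.0680) without Ctrl replicate 1, and for Tcf12 (edgeR adjusted p = 0.202) without Ctrl replicate 2.

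The genes whose pattern over the 4 libraries was closest to that of a called member were found among 8886 genes by the distance between log2 CPM values centred on each gene's mean. For Taf4b these were Lias, Ttc28 and Ano6, at distances of 0.0438, 0.0583 and 0.0795. Lias, which encodes lipoic acid synthetase, averaged 15.7 CPM in Ell3 KD and 26.3 CPM in Ctrl. For Nobox they were Nelfb, Lama4 and Slc45a3, at 0.0067, 0.0167 and 0.0181, and for Tbpl2 they were Zfp955a, Pla2g12a and Sdf2, at 0.0037, 0.0100 and 0.0105. With 4 libraries in 2 groups, such likeness rests mainly on the difference between the groups.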

How the data were processed

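RNA-seq counts of 4 mouse GV oocyte libraries were used, 2 of Ell3 KD and 2 of Ctrl, grouped by sample title. The deposited values are raw counts, 1 per gene symbol and library. The submitters' processing notes name HISAT2 2.2.1.0, featureCounts and FastQC 0.11.5, with build mm10. Annotation, strand setting and the treatment of reads with several matches are not given in the sources used here. Library totals ran from 45131278 to 89632815 counts.

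Tests used R 4.3.3 and edgeR 4.0.16 (filterByExpr, TMM, glmQLFit and a two-sided glmQLFTest) without covariates on the 4 libraries, with p adjusted over 17879 genes by Benjamini-Hochberg and called under 0.05. CPM use TMM-scaled totals. SE is the log2 fold change over the root of F, and 95% intervals use 26.3 degrees of freedom. Alternatives were RLE scaling, DESeq2 1.42.0, limma-voom (limma 3.58.1), no filter, thinning to the smallest library, a replicate block, an assumed coefficient of variation of 0.2, and each library left out. In counts simulated for this comparison over 17879 genes, edgeR recovered 65.7% of 1.5-fold changes and 70.2% of 2-fold changes and called 0.0523% of unchanged genes. The simulation left 17679 genes unchanged, whereas 42.9% of genes were called in the data, so its rates do not carry over to them. Its spread was taken from the fit, so it cannot test whether the fitted spread is right.

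Genes of each list are named if among the 3 highest in CPM or the 5 called with the smallest p. Other genes named beside the 7 (Taf4, Tbp, Gtf2a1, Gtf2a1l, Taf5, Taf11, Taf15, Zp1, Zp2, Dnmt1, Gpr149, Tcf3, Tcf12, Taf9, Id1, Ldb1, Ldb2 and Lmo2) were chosen after their values were seen. Likeness used log2 CPM with a prior count of 2, at 5 CPM or more, without predicted, Rik and pseudogene symbols. Members and lists were chosen with earlier results of these data known. Coordinates and exon lengths are from GENCODE M21 (GRCm38, the assembly mm10 names), and promoters from RefSeq (GRCm38.p6).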

Additional observations from a re-analysis of the deposited data

How the results depend on the processing

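With the assumed coefficient of variation of 0.2, 861 genes were called higher and 1103 lower, against 3770 and 3906 as reported. Of the 7 factors, the targets and the TFIID and TFIIA genes, 0 were then called in either direction, and of the partners 0 were higher and 2 lower. That setting is much wider than the spread of these libraries and could hardly call changes as small as most of those here. DESeq2 called 2 partners lower, against 5, and 11 TFIID and TFIIA genes higher, against 13. The calls lost there were those of Taf4 and Taf15 (DESeq2 adjusted p = 0.116). The log2 fold change of Taf5 was 0.15 as reported and 0.07 without Ctrl replicate 2. That of Taf15 was 0.57 as reported and 0.38 without Ell3 KD replicate 1. When a library was left out, 2 to 4 targets and 2 to 4 partners were called lower. Taf4b, Nobox and Tbpl2 kept their directions under all 11 alternatives and their calls under 10, all but the assumed coefficient of variation, where their log2 fold changes were -0.76, -0.27 and 0.22. Direction changed for genes without a call: with a library left out, Figla ranged from -0.0030 to 0.0485 and Sohlh1 from -0.427 to 0.0957 in log2 fold change, and in thinned libraries Sohlh2 had -0.0234 and Sohlh1 had 0.0570. The cause was not tested. Nothing in the labels says that replicate numbers pair libraries, and deviations of same-numbered libraries from their group means had a correlation of 0.04 over 9704 genes. With the replicate block 3894 genes were higher and 3987 lower, and Lhx8 was called lower as well (-0.06, edgeR adjusted p = 0.0396). The few reads of Sohlh1 limit what can be said of it.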
